A study of Mus musculus with 10 samples.

Results

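The AP-1 genes Fos, Fosb, Fosl1, Fosl2, Jun, Junb and Jund were read by 9 of the 12422 probe sets for mouse transcripts on an Affymetrix oligonucleotide array. A probe set is a group of short probes against 1 transcript, and the members were all probe sets annotated with 1 of these 7 gene symbols and no other. Fos and Junb had 2 probe sets each and every other gene had 1. The mice were wild-type C57Bl6, lost 1 eye at postnatal day 14 and were killed at postnatal day 18, 4 days after the surgery. Deprived cortex (5 samples) lies opposite the removed eye, whose axons mostly cross to that hemisphere in mice, and non-deprived cortex (5 samples) lies on the side of the removed eye. Both groups thus carry the enucleation, and no intact animal was compared. The labels speak of pooled samples and name 4 mice for the series, without saying how tissue was divided over the samples. Each p-value below thus rests on the spread between 10 arrays, which may be technical in part.

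AP-1 is a transcription factor made of pairs of leucine-zipper proteins. Jun proteins pair with each other or with Fos proteins, while Fos proteins need a Jun partner to bind DNA. In cortical neurons several of these genes, Fos, Fosb and Junb among them, are immediate early genes, switched on within minutes by calcium entry. The signal runs through factors that bind the cyclic AMP response element (CRE) and the serum response element. Jund is made more constantly. Fosb also gives a shortened splice form, deltaFosB, which the array signal does not separate from the full form.

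Promoters of 6 of the 7 genes were found in RefSeq (GRCm38.p6); that of Fosl1 was not analysed here. The 250 bases before the start are shown for the 3 genes with lower mean signals in deprived cortex (Fos, Junb and Fosb, described next) and for Jun, whose means were nearly equal. Capitals mark the CRE core TGACG in Fos, Fosb and Junb, and in Jun the 8 letters TGACNTCA, the form of the CRE and of the related site in Jun, where N is any base.
Fos, chr12:85473640-85473889, plus strand: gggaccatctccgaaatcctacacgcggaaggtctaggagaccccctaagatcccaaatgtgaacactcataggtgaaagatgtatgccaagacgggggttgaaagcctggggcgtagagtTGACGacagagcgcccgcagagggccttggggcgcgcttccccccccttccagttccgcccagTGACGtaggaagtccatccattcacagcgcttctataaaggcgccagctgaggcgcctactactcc
Junb, chr8:84978749-84978998, minus strand: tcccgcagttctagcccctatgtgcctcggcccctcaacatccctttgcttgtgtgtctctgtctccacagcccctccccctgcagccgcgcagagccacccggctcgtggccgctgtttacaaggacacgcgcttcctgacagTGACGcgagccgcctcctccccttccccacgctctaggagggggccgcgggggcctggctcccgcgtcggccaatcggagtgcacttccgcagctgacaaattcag
Fosb, chr7:19310046-19310295, minus strand: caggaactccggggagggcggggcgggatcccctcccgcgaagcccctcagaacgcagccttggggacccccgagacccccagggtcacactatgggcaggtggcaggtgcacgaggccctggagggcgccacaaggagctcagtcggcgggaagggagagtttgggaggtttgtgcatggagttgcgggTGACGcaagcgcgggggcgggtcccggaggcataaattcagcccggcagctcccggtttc
Jun, chr4:95052223-95052472, minus strand: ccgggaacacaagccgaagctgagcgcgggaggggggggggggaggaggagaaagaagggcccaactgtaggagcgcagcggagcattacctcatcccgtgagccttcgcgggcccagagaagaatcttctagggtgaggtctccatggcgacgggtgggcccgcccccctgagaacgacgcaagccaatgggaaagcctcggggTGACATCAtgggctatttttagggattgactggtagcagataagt

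The CRE core, searched on both strands, was present in the promoters of Fos, Fosb and Junb and in none of Jun, Jund and Fosl2. In Fos it lay at 129 to 125 and at 66 to 62 bases before the start, in Fosb at 60 to 56 and in Junb at 106 to 102. Over all 32851 promoter entries of this length, 17.8% held the core. The longer TGACNTCA, which overlaps the core where N is G, matched in Jun alone, 45 to 38 bases before the start, against 7.49% of all entries. The AP-1 site TGANTCA and the CArG box, to which serum response factor binds, matched in none of the 6 windows, against 6.75% and 1.47% of all entries. The TATA box TATAAA was found in Fos alone, 33 to 28 bases before the start, against 12.4% of all entries. These matches describe the letters in this window only. The shares over all entries were not matched for GC content, and a link to the signals was not tested. The GC content of the 6 promoters ranged from 47.6% in Jund to 68.8% in Fosb, against a median of 52.4% over all entries.

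Signals are the authors' MAS5 intensities in arbitrary units, scaled alike on all arrays, and differences are deprived minus non-deprived on the scale log2(signal + 16). Of the 9 probe sets, 7 (of 6 genes) were bright enough to be tested among 7453, and no probe set of the array passed an adjusted p of 0.05 in limma (0%). At an unadjusted p under 0.05, 4 of the 7 tested Fos and Jun probe sets, of the 3 genes Fos, Fosb and Junb, were lower in deprived cortex and none was higher. Over the whole array, 2.36% of probe sets were lower and 2.43% higher at that threshold. The 2 groups of arrays did not overlap for 3 of the 7, Fos and both of Junb, all lower in deprived cortex; over the array this held for 0.47% of probe sets in that direction and for 0.953% in either. The median difference of the 7 was -0.39, against 0.0066 for all 7453. In tissue, fewer cells of a type and less RNA per cell cannot be told apart.

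Fos, the founding member of its family and the usual marker of recently active neurons, had signals of 2897, 4585, 4124, 3583 and 3769 on non-deprived arrays 1 to 5 (160901_at). On deprived arrays 1 to 5 they were 1432, 1993, 2531, 2370 and 2016. The highest deprived array stood 366 units below the lowest non-deprived array, so the groups did not overlap, and array 1 was the lowest in both. Means were 2069 ± 424 and 3792 ± 629 (SD, n = 5 each), 45.4% lower in deprived cortex. The log2 difference was -0.88 ± 0.15 (SE; 95% interval -1.20 to -0.56; limma adjusted p = 0.105, unadjusted 4.23e-05), the third smallest p on the array. It passed without non-deprived array 1, the lowest of its group (-0.97, limma adjusted p = 0.0303), but at no other single omission.

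A second, dim Fos probe set (161716_at) had signals of 66.2 to 111 in non-deprived and 69.1 to 127 in deprived cortex, with medians of 81.3 and 103. The groups overlapped throughout and the means, 86.5 ± 17.5 and 97.1 ± 26.7 (SD, n = 5 each), lay the other way round. It was below the brightness filter, and without that filter its log2 difference was 0.12 ± 0.21 (SE; limma adjusted p = 0.978). The platform table gives no accession for this probe set, and which part of the transcript it reads is not known here.

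Fosb, a Fos relative that is induced by activity and whose shortened form is long-lived, had signals of 920, 859, 1088, 943 and 1011 on non-deprived arrays 1 to 5 (103990_at). On deprived arrays 1 to 5 they were 704, 561, 825, 727 and 871. The groups overlapped by 1 array each: deprived array 5 lay 12.2 units above non-deprived array 2, and the other 4 deprived arrays lay below all non-deprived ones. Means were 737 ± 120 and 964 ± 88.4 (SD, n = 5 each), 23.5% lower, with a log2 difference of -0.39 ± 0.12 (SE; interval -0.64 to -0.14). It did not pass over the array (limma adjusted p = 0.992, unadjusted 0.00474).

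The Fos-related antigens Fosl1 (Fra-1) and Fosl2 (Fra-2), which lack the strong activation domain of Fos, were dim. Fosl2 had signals of 111 to 175 in non-deprived and 74.3 to 212 in deprived cortex, with medians of 147 and 129 (103546_at). The deprived arrays spanned a 2.85-fold range, from array 1 to array 2, and enclosed all non-deprived arrays. The log2 difference was -0.16 ± 0.24 (SE; interval -0.67 to 0.35; limma adjusted p = 0.992), and it turned to 0.01 without deprived array 1. Fosl1 had medians of 22.0 and 20.3 in non-deprived and deprived cortex, and its signals reached 64.1 on non-deprived array 5 and 84.8 on deprived array 3 (99835_at). It was below the filter, with 2 of 10 arrays under 16 units, and its unfiltered log2 difference was -0.0072 ± 0.35 (SE). The interval of Fosl2 includes the difference seen in Fosb.

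**Figure D1:**
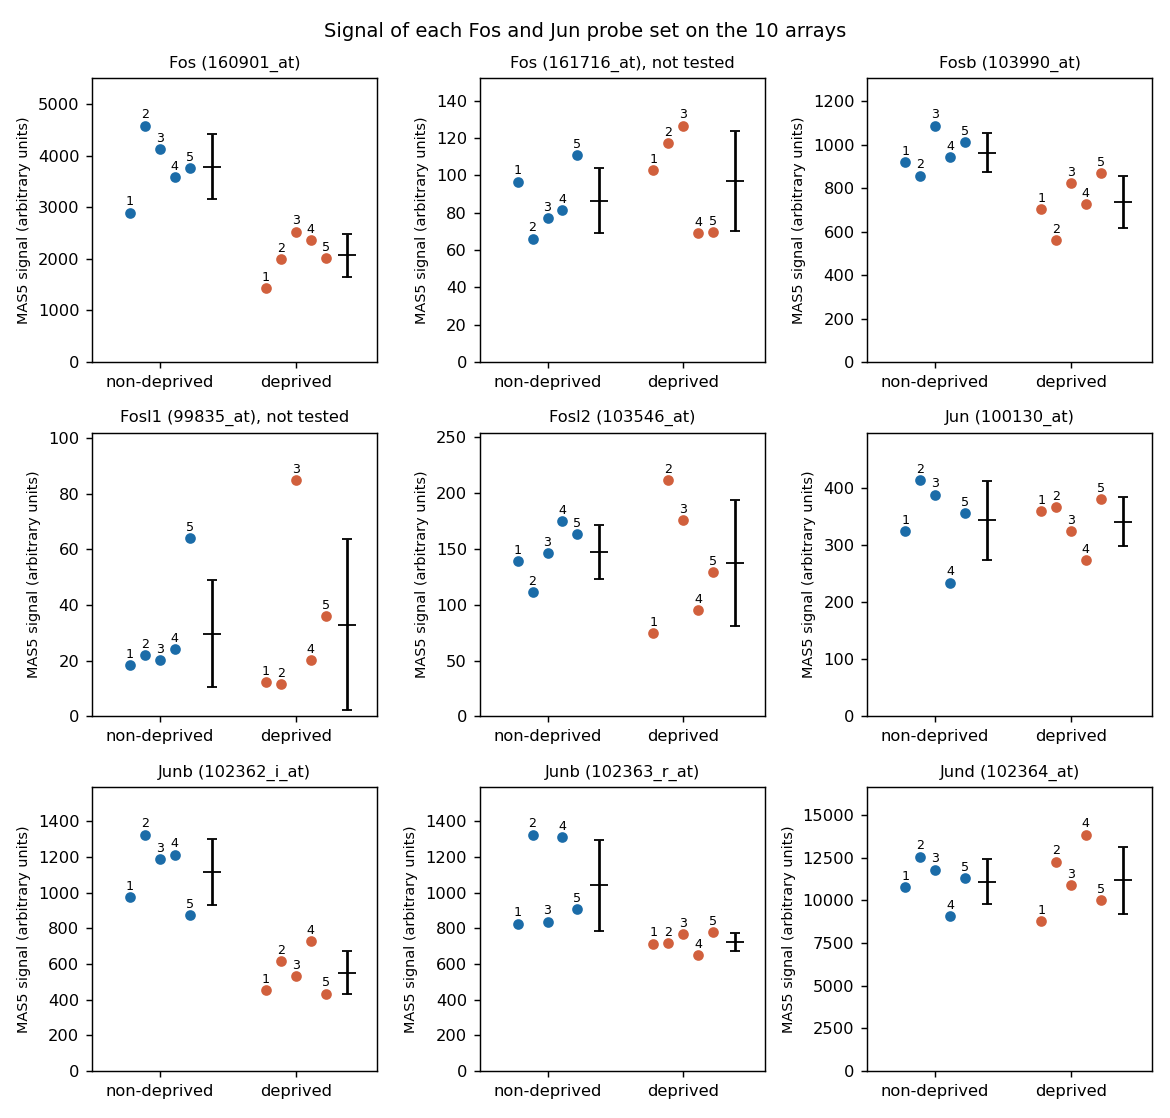
Signal in arbitrary units of the 9 probe sets on the 5 non-deprived (blue) and 5 deprived (orange) arrays; points carry replicate numbers, and the bar gives the mean ± SD. The groups are separate for Fos (160901_at) and both Junb probe sets, overlap by 1 array each for Fosb, and overlap widely for Fosl1, Fosl2, Jun, Jund and the dim Fos probe set.

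Among the Jun genes, Junb had lower mean signals in deprived cortex on both of its probe sets, and the means of Jun and Jund were nearly equal in both groups. Junb, an immediate early Jun protein that can also restrain Jun, had signals of 975, 1326, 1188, 1213 and 876 on non-deprived arrays 1 to 5 of 1 probe set (102362_i_at, whose suffix marks an incomplete set of probes). On deprived arrays 1 to 5 they were 454, 614, 530, 728 and 434. The groups did not overlap, with 148 units between deprived array 4 and non-deprived array 5. Means were 552 ± 121 and 1115 ± 184 (SD, n = 5 each), and the log2 difference was -1.0 ± 0.15 (SE; interval -1.32 to -0.68; limma adjusted p = 0.0503), the smallest p on the array. It passed without deprived array 4, the highest of its group (-1.11, limma adjusted p = 0.0206), and without non-deprived array 1 (-1.05, limma adjusted p = 0.0303). It also passed with a pseudocount of 64 (limma adjusted p = 0.0491) and with a brightness filter at the 60th percentile (limma adjusted p = 0.0325).

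The other Junb probe set (102363_r_at, designed under relaxed rules) had 826, 1326, 838, 1311 and 909 on non-deprived arrays 1 to 5, where arrays 2 and 4 stood high. Its deprived arrays were tight, at 714, 716, 767, 651 and 778, all below the non-deprived ones. The coefficient of variation was 6.96% in deprived and 24.4% in non-deprived cortex. The log2 difference was -0.48 ± 0.14 (SE; interval -0.78 to -0.18; limma adjusted p = 0.992, unadjusted 0.00377), and means were 725 ± 50.5 and 1042 ± 254 (SD, n = 5 each). Both Junb probe sets, annotated to the same accession, thus gave lower signals in deprived cortex.

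Jun, the founding Jun protein and a target of JNK kinases, had signals of 325, 414, 389, 234 and 356 on non-deprived arrays 1 to 5 and 360, 366, 325, 274 and 381 on deprived arrays 1 to 5 (100130_at). Array 4 was the lowest in both groups, and the groups overlapped fully. The log2 difference was 0.0045 ± 0.15 (SE; interval -0.31 to 0.32; limma adjusted p = 0.997), and its sign turned under quantile normalization, under median scaling and on leaving out any of 5 single arrays. The interval leaves room for changes in Jun of up to 0.32 in either direction.

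Jund, the Jun protein most constantly expressed and often a brake on growth, was bright, at 10788, 12557, 11796, 9055 and 11287 on non-deprived arrays 1 to 5 (102364_at). On deprived arrays 1 to 5 it had 8798, 12272, 10899, 13849 and 10007. Means were 11165 ± 1965 in deprived and 11096 ± 1315 in non-deprived cortex (SD, n = 5 each). The log2 difference was -0.00041 ± 0.12 (SE; interval -0.26 to 0.26; limma adjusted p = 0.999), and its sign turned on leaving out any of 6 single arrays. Deprived array 4 was the highest of all 10 arrays and deprived array 1 the lowest, so the deprived group enclosed the non-deprived one.

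**Figure D2:**
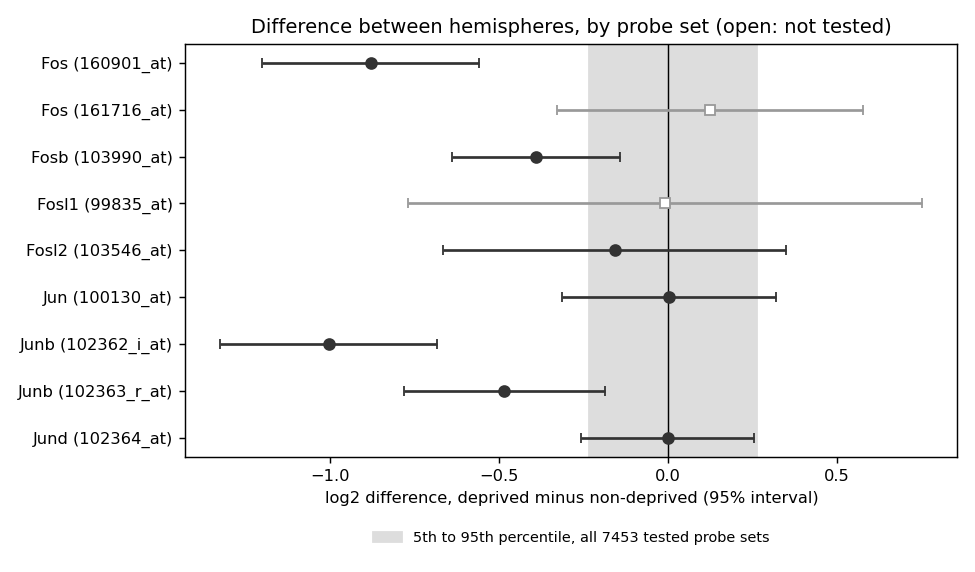
Log2 difference, deprived minus non-deprived, with its 95% interval from limma for each probe set; open squares are the 2 probe sets that were not tested, taken from the fit without a filter, and the grey band holds the 5th to 95th percentile of all 7453 tested probe sets. Fos (160901_at), both Junb probe sets and Fosb lie to the left of the band, whereas Jun and Jund lie near 0.

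Whether 2 members changed by different amounts was tested on the ratio of their signals within each array, with the brightest tested probe set of each gene and the 2 of Junb against each other. These were 16 pairs, and the smallest p an exact two-sided permutation test over the 252 assignments of 5 against 5 arrays can give is 0.00794. After Benjamini-Hochberg adjustment over the pairs none passed 0.05, and 6 had an unadjusted exact p below it. The log2 change of Fos minus that of Jun was -0.88 ± 0.23 (SE; exact permutation p = 0.00794, adjusted 0.0635; interval -1.42 to -0.35). Fos minus Jund was -0.88 ± 0.14 (exact permutation p = 0.00794, adjusted 0.0635; interval -1.19 to -0.56). Fos minus Fosb was -0.49 ± 0.20 (SE; exact permutation p = 0.0238, adjusted 0.127). Fos minus Fosl2 was -0.72 ± 0.27 and Jun minus Junb 0.49 ± 0.24 (SE; exact permutation p = 0.0317 and 0.0397, adjusted 0.127 for both). The interval of Jun minus Junb, -0.07 to 1.04, includes 0. Fosb minus Jun was -0.39 ± 0.20 and Fosb minus Jund -0.39 ± 0.21 (exact permutation p = 0.0794 and 0.103, adjusted 0.165 for both). Jun and Jund differed by 0.0049 (interval -0.43 to 0.44), which does not show that they acted alike.

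In these pairs Junb was represented by its relaxed-rule probe set, the brighter of the pair. The 2 Junb probe sets differed in their change by -0.52 ± 0.21 (SE; exact permutation p = 0.0476, adjusted 0.127). With the incomplete probe set in its place, chosen after the results were seen, 3 of 16 pairs passed. They were Fos against Jun, Fos against Jund and Junb against Jund (adjusted exact permutation p = 0.0423 each), and Junb minus Jund was -1.0 ± 0.14 (SE; interval -1.32 to -0.69). Fos and this Junb probe set differed by only 0.12 ± 0.16 (SE; interval -0.26 to 0.51; exact permutation p = 0.460). With the relaxed-rule set, leaving out deprived array 4 gave 4 passing pairs, namely Fos against Fosl2, Jun and Jund, and the 2 Junb sets (adjusted exact permutation p = 0.0317 each).

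**Figure D3:**
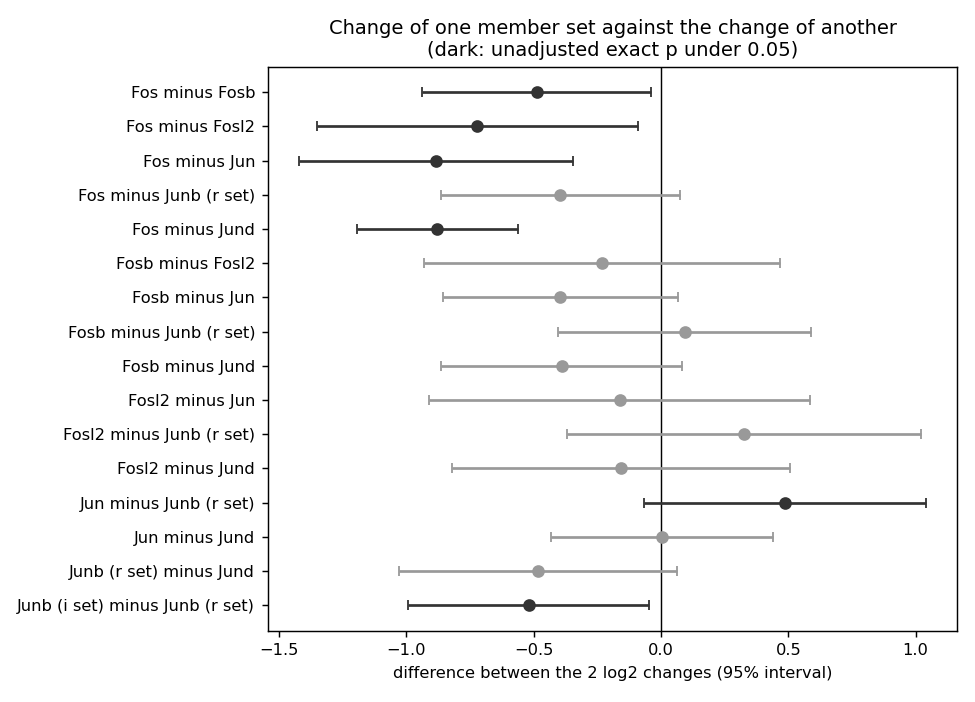
Difference between the log2 changes of 2 probe sets, with its 95% interval from the pooled spread of the within-array ratio, for the 16 pairs; dark points have an unadjusted exact p under 0.05. Fos minus Jun and Fos minus Jund lie at -0.88, and Jun minus Jund lies at 0.0049.

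Likeness to Fos over the 10 arrays was measured by the root mean square difference between log2 signals, each centred on its own mean, so that 0 is an identical pattern; the 10 arrays share their scaling and the group difference. Among 6735 tested probe sets of other genes the nearest to Fos were Nr4a1, an orphan nuclear receptor (0.199), Dusp1, a MAP kinase phosphatase (0.211), and Sertad1, a cell-cycle regulator (0.227). They were followed by Bdnf, a neurotrophin (0.229), and Btg2, an antiproliferative factor (0.241), against a median of 0.547. The incomplete Junb probe set lay 0.241 from Fos, with only those 5 probe sets nearer. The relaxed-rule Junb set (0.349) had 20 nearer probe sets and Fosb (0.368) had 42. Jund (0.480), Fosl2 (0.529) and Jun (0.551) had 988, 2664 and 3512. The dim second Fos probe set (0.652) and Fosl1 (0.677), both under the filter, had 5872 and 6127.

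Genes near Fos or Junb were picked on these same arrays, with the group difference included. Their lower signals in deprived cortex thus follow largely from the pick and are no separate result. Of the 5 genes nearest to Fos, Nr4a1 had signals of 1989 ± 446 in deprived and 3613 ± 811 in non-deprived cortex (SD, n = 5 each). Its log2 difference was -0.85 ± 0.18 (SE), and those of the other 4 ranged from -0.64 ± 0.13 (Btg2) to -0.56 ± 0.12 (Bdnf), with limma adjusted p-values from 0.326 to 0.571 for the 5. Without non-deprived array 1, the omission at which Fos and the incomplete Junb set passed, Nr4a1 (-1.01) and Btg2 (-0.76) passed too (limma adjusted p = 0.0303 each). For the incomplete Junb probe set, added after the results were seen, Fos was nearer than all 6735 candidates, and the nearest others were Bdnf (0.259), Btg2 (0.263) and Nr4a1 (0.272), then Dusp1 (0.329) and Klf4, a Krüppel-like factor (0.331). The relaxed-rule Junb set had other neighbours, Ankrd40 (0.164), Gstm2 (0.193), Cnih1 (0.200), Ubxn1 (0.205) and Klf4 (0.206), whose log2 differences lay between -0.21 and -0.44. For this set, 1961 of the 6735 candidates were nearer than Fos (0.349). The incomplete Junb set (0.390) lay farther from it than the median candidate (0.381), with 3665 nearer. Measured from the incomplete set, the same distance had only 19 candidates nearer, against a median of 0.593. The measure counts the size of a change as well as its shape. It therefore does not show whether the 2 Junb sets differed in shape.

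**Figure D4:**
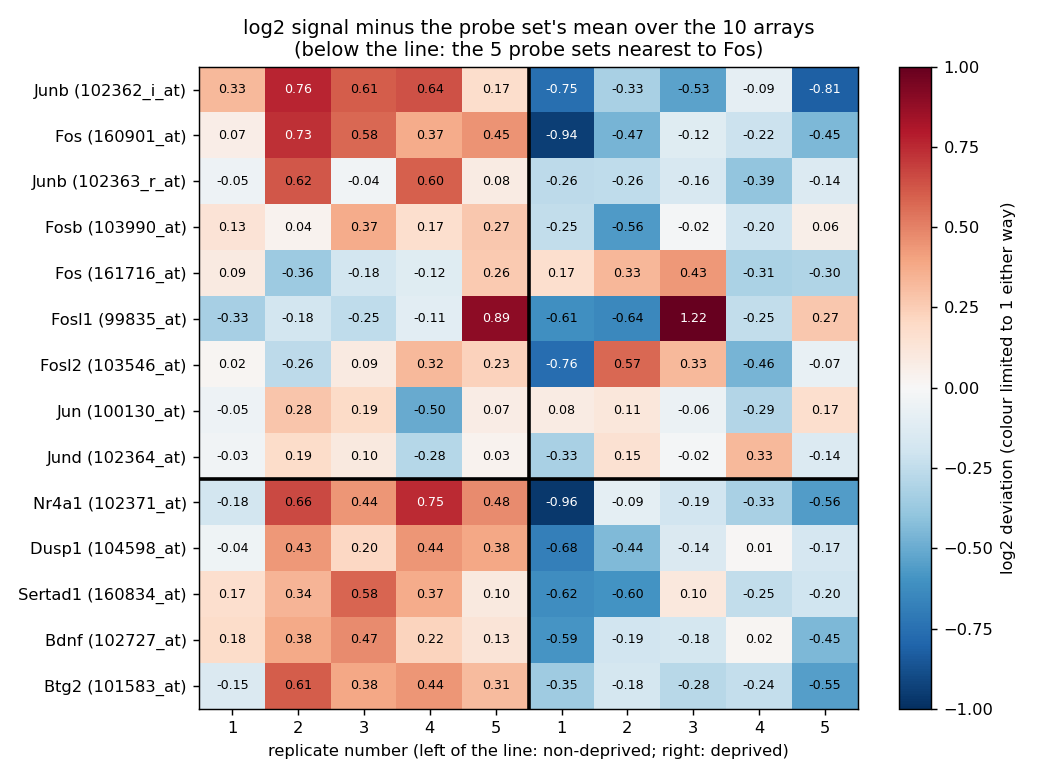
Log2 signal minus the probe set's own mean over the 10 arrays, printed and coloured for each array (columns: non-deprived replicates 1 to 5, then deprived 1 to 5) and probe set. The lower block holds the 5 probe sets nearest to Fos; Fos and the incomplete Junb set are above their mean on every non-deprived array and below it on every deprived array.

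Around the Fos and Jun genes, 4 lists of AP-1 genes drawn from general knowledge were read in the same limma fit, each gene by its brightest tested probe set. None of their 74 entries tested passed over the array, and the share of all 7453 probe sets below 0 was 48%. Of 32 AP-1 partners and other leucine-zipper (bZIP) factors, 21 were tested, 15 with differences below 0 and 6 above, at a median of -0.06 (-0.11 without non-deprived array 1). At an unadjusted limma p under 0.05, 2 of the 21 were lower and none higher, against 2.36% and 2.43% of all tested probe sets. The 4 with the smallest p were Ddit3 (CHOP), a stress-induced factor that pairs with C/EBP proteins, Atf6, a sensor of unfolded protein, Atf5 and Cebpb. Ddit3 had 258 ± 51.5 against 376 ± 41.8 (SD, n = 5 each; log2 -0.53 ± 0.14 SE; limma adjusted p = 0.780), with no overlap between the groups. Over the array, 0.953% of tested probe sets had no overlap in either direction. Atf6 had a log2 difference of -0.36 ± 0.14 (SE), Atf5 of -0.32 ± 0.16 and Cebpb of -0.26 ± 0.14 (limma adjusted p = 0.992 each). The 2 brightest, Nfe2l1 and Tef, had -0.07 ± 0.08 and 0.02 ± 0.12 (SE), and a second Nfe2l1 probe set had 0.19 ± 0.15. Creb1, which binds the CRE, and Batf, a Jun partner, lay under the brightness filter.

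Of 40 listed kinases and factors upstream of AP-1, 22 were tested, 16 below 0 and 6 above, at a median of -0.05 (-0.090 without deprived array 3 and -0.015 without deprived array 4). The smallest p-values belonged to Mapk14 (p38 alpha; log2 -0.13 ± 0.08 SE), Map2k4, which activates JNK (-0.19 ± 0.12), Camk2a, the calcium-dependent kinase of excitatory synapses (-0.29 ± 0.18), and Prkaca, the catalytic subunit of protein kinase A (-0.15 ± 0.10). The bright Gsk3a, a kinase that marks Jun for turnover, had 14824 ± 2257 in deprived and 14939 ± 1822 in non-deprived cortex (SD, n = 5 each). Mef2d, a factor that responds to calcium, had a log2 difference of -0.04 ± 0.10 (SE). No tested gene of this list reached an unadjusted p of 0.05.

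Of 25 cofactors and turnover genes, 12 were tested, 6 on each side of 0. Nupr1, a stress-induced cofactor, was dim and variable, at 152 ± 106 against 237 ± 52.9 (SD, n = 5 each; log2 -0.85 ± 0.40 SE; limma adjusted p = 0.992). Apex1, which keeps the DNA-binding cysteine of AP-1 reduced, had 600.0 ± 23.1 against 678 ± 52.0 (SD, n = 5 each). Its groups did not overlap, against 0.953% of all tested probe sets (log2 -0.17 ± 0.08 SE, limma adjusted p = 0.992). Ncoa1 and Crebbp, both coactivators, had 0.14 ± 0.10 and 0.12 ± 0.15 (SE). Fbxw7, which targets Jun for degradation, had 0.04 ± 0.08 and Txn1, thioredoxin, 0.0050 ± 0.15.

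Of 35 genes with a described AP-1 site, 19 were tested, 6 below 0 and 13 above, at a median of 0.05, and none reached an unadjusted p of 0.05. That median was 0.013 without deprived array 2 and 0.015 under median scaling. The smallest p-values of this list were those of Gclc, for glutathione synthesis (log2 0.13 ± 0.08 SE), Mt1, a metallothionein (0.33 ± 0.24), the neuropeptide gene Gal (0.15 ± 0.12) and Plau, urokinase (-0.23 ± 0.20). The bright Gria2, an AMPA receptor subunit, had -0.07 ± 0.07 and the neuropeptide gene Cck -0.05 ± 0.11 (SE). The matrix protease genes Mmp3, Mmp9, Mmp10 and Mmp13, classical AP-1 targets, lay under the filter and were not tested.

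**Figure D5:**
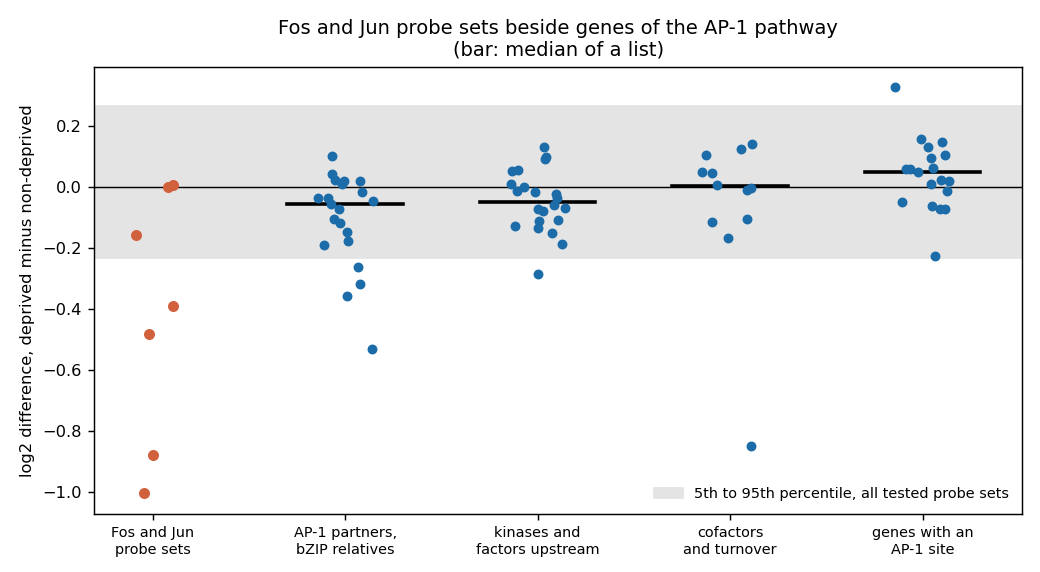
Log2 difference, deprived minus non-deprived, of the 7 tested Fos and Jun probe sets (orange) and of the tested genes of 4 AP-1 lists (blue; bar, list median); the grey band holds the 5th to 95th percentile of all tested probe sets. Of the Fos and Jun probe sets, 4 lie below the band, while the list medians lie between -0.06 and 0.05.

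The 10 arrays had median signals of 191 to 209, and none of 13 array measures differed between the groups after adjustment (smallest adjusted exact permutation p = 0.855). The actin 3' to 5' ratio, a measure of RNA integrity, averaged 1.58 ± 0.121 on deprived arrays and 1.58 ± 0.181 on non-deprived arrays (SD, n = 5 each). Summed signals of neuronal markers ranged from 23995 to 29426 on deprived and from 25172 to 27401 on non-deprived arrays, with 1 of 6 tested genes lower and none higher at an unadjusted p under 0.05. For astrocytes, oligodendrocytes, endothelium and erythrocytes the summed ranges overlapped, and 1 of 6 tested astrocyte genes was higher at that threshold. The shares of all tested probe sets at that threshold were 2.36% lower and 2.43% higher. Summed microglia markers had the smallest p of the 13 measures, at 5917 ± 206 on deprived and 5556 ± 320 on non-deprived arrays (SD, n = 5 each; two-sided exact permutation p = 0.0714, adjusted 0.855), and their ranges overlapped as well. Markers of cortical excitatory neurons were present, at 6709 to 9283 and 6989 to 9135, and all 4 choroid plexus markers lay under the filter. The part of cell makeup in the Fos and Junb differences was not tested.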

How the data were processed

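RNA of 10 visual cortex samples was measured on 1 array each, and the sample titles gave each array's group and number. The authors deposited intensities on a linear scale from MAS5, Affymetrix's probe summary, per the submitters' processing notes. Version and target: not given in the sources used here. Without the lowest and highest 2% of values, every array averaged 500 after rounding, so changes are relative to the array average. No detection calls were used.

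Control probe sets (66) were dropped. Of the other 12422, 10833 had 1 gene symbol, 396 several and 1193 none. Of those with 1 symbol, 10817 were matched through Entrez IDs and took the RefSeq symbol, changed or not. Values were taken as log2(value + 16), which understates changes of dim probe sets. Probe sets under the 40th percentile of mean log2 signal (about 115 units) were left out and 7453 tested in limma 3.58.1 (R 4.3.3) with an intensity trend, no covariate and Benjamini-Hochberg adjustment at 0.05. Every adjusted p not called exact comes from this fit. Member ratios and array measures had exact two-sided permutation tests (Python 3.11.15). Intervals are 95%, and precision is limited by having 5 arrays per group.

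The members, the gene lists and the tests were chosen with earlier results of these data known. Named genes are all member probe sets, the 5 nearest probe sets to Fos and to the brightest Junb set, and from each list the 4 genes with the smallest p and the 2 brightest. Creb1, Batf, the matrix proteases and the nearest sets to the other Junb set were named after their values were seen. On simulated arrays with the real means and spreads (7453 probe sets, 200 changed, 10 runs), limma recovered 66% of 1.5-fold and 92.2% of 2-fold changes at 0.05. The 200 were split evenly over 1.5-, 2-, 3- and 4-fold changes, and probe sets varied independently. Many strong changes loosen the Benjamini-Hochberg cutoff, so these shares do not apply where few probe sets change.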

Additional observations from a re-analysis of the deposited data

Results flagged for a closer look

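In groups of 5, the highest or lowest array was set against Dixon's 95% critical value of 0.71, the gap to the nearest array as a share of the range. Of 44 groups examined 3 exceeded it, where chance gives about 1 in 20. Fosl1 on non-deprived array 5 had a signal of 64.1, with a gap of 0.873 of the range; the probe set is dim and was not tested. The actin 3' to 5' ratio was 1.90 on non-deprived array 3 (0.745). The summed choroid plexus markers were 100 on non-deprived array 1 (0.718), the lowest of that group, with all 4 markers under the filter. This is the array without which Fos and the incomplete Junb set passed and 5 probe sets were lower.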

How the results depend on the processing

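With all 10 arrays and the planned settings no probe set passed an adjusted p of 0.05 in limma, while 357 had an unadjusted p under 0.05. The number lower in deprived cortex was 2 with a pseudocount of 64 and 2 when the filter was raised to the 60th percentile (Junb and Dusp6 in both), and 0 to 5 without single arrays; none was higher under any of the 18 alternatives. The incomplete Junb probe set passed with the 60th percentile filter (-1.0, adjusted p = 0.0325), with a pseudocount of 64 (-0.94, adjusted p = 0.0491), and ranged from -1.11 to -0.93 without single arrays. Fos ranged from -0.97 to -0.75 without single arrays. Fosb (-0.45 to -0.30) and the relaxed-rule Junb set (-0.56 to -0.39) kept their direction and missed the threshold in every omission. Jun turned to -0.029 under median scaling and -0.012 under quantile normalization. Without single arrays Jun ranged from -0.12 to 0.078, Jund from -0.082 to 0.081 and Fosl2 from -0.32 to 0.013. Fosl2 lay under the 60th percentile filter and has no value there.

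Replicate numbers were also fitted as a block. Same-numbered arrays deviated together with correlations of 0.140, 0.182, 0.222, 0.227 and 0.0222 over the tested probe sets, and 9 of 10 arrays correlated best with their own number, which is a hint from the data and not from the labels. With the replicate block 6 probe sets were lower, among them Junb (-1.0, adjusted p = 0.00367), Fos (-0.88, adjusted p = 0.00498), Nr4a1 (-0.85, adjusted p = 0.00372) and Dusp1 (-0.57, adjusted p = 0.0496) in limma. The number of member pairs past 0.05 stayed 0 with the block, where the sign-flip test over 5 pairs cannot go below 0.0625. It was 0 to 4 without single arrays and 3 with the incomplete Junb set. Signs turned for Jun minus Jund (-0.0022 under quantile normalization; -0.097 to 0.16 without single arrays), Fosb minus Fosl2 (-0.39 to 0.022), Fosb minus Junb (-0.041 to 0.21), Fosl2 minus Jun (-0.32 to 0.029) and Fosl2 minus Jund (-0.29 to 0.021), none of which passed in any setting. The median of the upstream list was -0.083 under median scaling and -0.090 to -0.015 without single arrays. Without single arrays the median ranged from -0.11 to -0.044 for the partners, from -0.040 to 0.038 for the cofactors and from 0.013 to 0.058 for the genes with an AP-1 site; under median scaling these were -0.089, -0.033 and 0.015. The causes of these shifts were not tested.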
